A study of Mus musculus with 16 samples.

Results

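The genes described here are 10 parts of the NF-kappaB system, of 23356 genes in the tables. They were chosen by name, with earlier results of these data known. Nfkbia and Tnfaip3 encode the inhibitor IkappaBalpha and the ubiquitin-editing enzyme A20. Nfkb1, Nfkb2, Rela and Relb encode p105/p50, p100/p52, p65 and RelB, which are DNA-binding subunits. Cxcl1, Ccl2, Ccl7 and Il6 encode secreted chemokines and a cytokine that are well-known targets.

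RNA came from NIH3T3, an established mouse fibroblast line, carrying a stably introduced destabilizing domain fused to superfolder GFP. The domain is a mutant of FKBP12 that the ligand Shield-1 keeps folded, and the cells are a pool sorted for high GFP rather than a single clone. The 4 groups, with 4 libraries each, were untreated control cells (0 min) and cells treated with the proteasome inhibitor bortezomib for 45, 135 or 405 min. The dose was not given in the labels, and no control was collected at the later times, so elapsed time and drug cannot be told apart. The labels do not say that replicates were separate cultures, so p-values measure only the spread between these libraries, which may be technical.

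NF-kappaB dimers are held in the cytoplasm by IkappaB proteins. Signals from cytokine receptors lead to phosphorylation and ubiquitylation of IkappaBalpha, which the proteasome then destroys, and the freed dimers switch on inflammatory genes together with Nfkbia and Tnfaip3, which restrain the pathway. The proteasome also trims p105 and p100 to p50 and p52, so that this pathway needs proteasome activity at more than 1 step.

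The short DNA motif that these dimers bind, the kappaB motif, is 10 bases long and was searched on both strands in RefSeq promoter windows (GRCm38.p6, 250 bases before to 50 bases after each gene's start). Windows were given for 6 of the 10 genes, and 5 of these held a match: Il6, Cxcl1, Tnfaip3, Nfkbia and Nfkb2. Rela had a window with none, and Ccl2, Ccl7, Nfkb1 and Relb had no window. Of all 32851 windows, 8.46% held a match, and of the 27025 genes with a window 9.55% did. A match describes the letters only. The stretches below show where the motif lies in the genes that carry it, read 5′ to 3′ on the gene's strand and ending before its start, with the matches in capitals. The Cxcl1 stretch holds 2 matches that overlap and run together, on opposite strands, and the Nfkb2 stretch holds 3, of which 2 overlap.
Il6 (chr5:30013024-30013113, plus strand): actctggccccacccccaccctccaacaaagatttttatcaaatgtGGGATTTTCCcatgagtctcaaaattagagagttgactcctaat
Cxcl1 (chr5:90891135-90891224, plus strand): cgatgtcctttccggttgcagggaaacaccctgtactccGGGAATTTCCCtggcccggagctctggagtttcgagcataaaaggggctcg
Tnfaip3 (chr10:19015411-19015500, minus strand): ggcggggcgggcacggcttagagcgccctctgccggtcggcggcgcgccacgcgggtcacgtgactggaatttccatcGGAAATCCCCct
Nfkbia (chr12:55492648-55492737, minus strand): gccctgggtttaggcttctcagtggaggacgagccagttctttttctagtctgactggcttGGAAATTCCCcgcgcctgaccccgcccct
Nfkb2 (chr19:46304647-46304736, plus strand): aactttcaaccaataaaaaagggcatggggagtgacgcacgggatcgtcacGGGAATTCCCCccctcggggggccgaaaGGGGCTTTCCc

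The libraries fell into 2 kinds, and every value below has to be read beside this. In 7 libraries the 97 ribosomal protein genes (Rpl and Rps symbols) held 4.25% to 9.42% of the fragments, and in 9 libraries 0.398% to 1.21%. A cut at 4% separates them. The 7 libraries over the cut were replicates 1 and 2 at 45 min, replicates 1 and 2 at 135 min and replicates 1, 3 and 4 at 405 min, while all 4 controls lay under it. Depth ran from 1385229 to 19930375 fragments over the cut and from 570323 to 1469951 under it. Olfactory and vomeronasal receptor genes, which fibroblasts do not use, held 0.00556% to 2.62% of fragments over the cut and 4.16% to 5.13% under it. A list of 10 fibroblast markers summed to 3506 to 20463 CPM (a gene's fragments per 1000000 fragments on genes) over the cut and to 334 to 1697 under it. For 10 macrophage and leukocyte markers the sums were 5.06 to 126 over the cut and 143 to 240 under it, for 4 endothelial markers 0.544 to 95.3 and 149 to 372, and for 4 epithelial markers 0 to 78.7 and 88.1 to 172. No marker was at 0 in every library of either kind. By these sums the labelled fibroblast identity was well marked over the cut and weakly marked under it. Col5a1 went the other way, with a median of 75.8 CPM over the cut and 83.7 CPM under it. The other fibroblast markers had higher medians over the cut, with overlapping ranges for Col1a2, Pdgfrb, Thy1, S100a4 and Sparc. What part this division has in any difference from control was not tested, and in bulk samples fewer cells and less RNA per cell cannot be told apart.

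In 2 members, Ccl2 and Ccl7, every library at 405 min exceeded every control. Ccl2 encodes a chemokine that draws in monocytes through the receptor CCR2. It stood at 39.5, 69.6, 8.98 and 0 CPM in control replicates 1 to 4, where the last value is 0 of 864864 fragments and allows up to 3.47 CPM. At 45 min the values were 204, 676, 0 and 12.8 CPM, and at 135 min they were 4101, 601, 57.9 and 5.68 CPM. At 405 min they were 783, 342, 2839 and 1115 CPM. All 7 libraries over the cut (204 to 4101 CPM) and the 1 library under it at 405 min (replicate 2, 342 CPM) exceeded the highest control. The remaining 4 treated libraries under the cut, at 45 and 135 min, lay between 0 and 57.9 CPM, within the range of the controls.

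On the log2(CPM + 1) scale, which understates changes of low values, mean Ccl2 was 9.91 ± 1.26 (SD, n = 4) at 405 min and 3.70 ± 2.74 in control. The difference was 6.21 (2-sided exact permutation p = 0.0286, the smallest that 4 against 4 libraries can give, reached in 2 of 30 such tests over the members). At 135 min the difference was 3.76 (exact p = 0.229) and at 45 min 1.52 (exact p = 0.600), with the groups overlapping at both. Leaving out control replicate 4, where Ccl2 was 0, gave 4.97 at 405 min, and leaving out control replicate 2, the highest, gave 7.02. With any 1 library left out the exact p was 0.0571, the smallest that 3 against 4 can reach. In the edgeR quasi-likelihood fit without a filter on low counts, Ccl2 at 405 min had a log2 fold change of 6.31 with an adjusted p of 0.418 over all genes, and so did not pass. With the replicate number as a block added it was 9.51 (edgeR adjusted p = 0.293).

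Ccl7 encodes another monocyte chemokine. Control libraries held 10.2, 36.0, 2.24 and 0 CPM, and those at 45 min 71.4, 257, 11.6 and 38.4 CPM. Later libraries held 848, 264, 3.51 and 2.27 CPM at 135 min and 181, 46.8, 412 and 334 CPM at 405 min. The lowest library at 405 min, replicate 2 under the cut, was just above the highest control, 36.0 CPM. These values were 36 fragments and, in control replicate 2, 31 fragments, so the separation of the groups rested on few fragments. Mean log2(CPM + 1) was 7.54 ± 1.40 (SD, n = 4) at 405 min against 2.60 ± 2.25 in control, a difference of 4.94 (exact p = 0.0286). Without control replicate 4 it was 4.08 and without control replicate 2 it was 5.81, each at exact p = 0.0571. At 45 min 3 of 4 libraries exceeded every control (difference 3.19, exact p = 0.0571), and at 135 min 2 of 4 did (difference 2.82, exact p = 0.257). The unfiltered edgeR fit gave 5.35 at 405 min with an adjusted p of 0.418, and 8.02 with the block (adjusted p = 0.293).

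**Figure D1:**
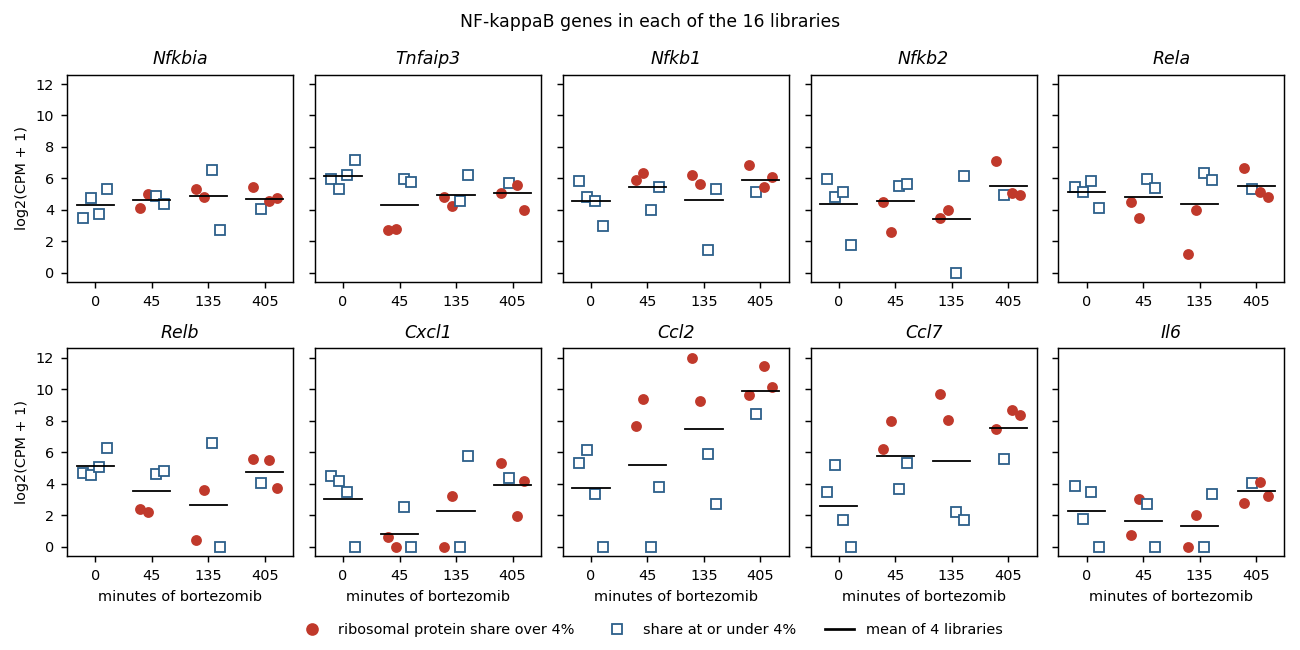
Level of each of the 10 genes as log2(CPM + 1) in all 16 libraries, by minutes of bortezomib, with 0 for control. Filled red circles are libraries over 4% ribosomal protein share, open blue squares are the others, and bars are means of 4 libraries. Ccl2 and Ccl7 at 405 min are the groups that lie wholly above the controls.

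Among all 22323 genes with a fragment in control or 405 min libraries, 2.69% had all 4 libraries at 405 min above all controls, against 2 of the 10 members. The background was 0.701% at 45 min and 0.732% at 135 min, where no member did so. No member lay wholly below the controls at any time, where the backgrounds at 45, 135 and 405 min were 4.38%, 8.88% and 7.44%. In the plot of chemokine level against ribosomal protein share, both genes were high in the libraries over the cut at all 3 times. No control lies there, so for those libraries treatment and library kind cannot be told apart. Under the cut the single library at 405 min gave Ccl2 a difference from control of 4.72 and Ccl7 a difference of 2.98 on the log2(CPM + 1) scale, with no replicate.

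**Figure D2:**
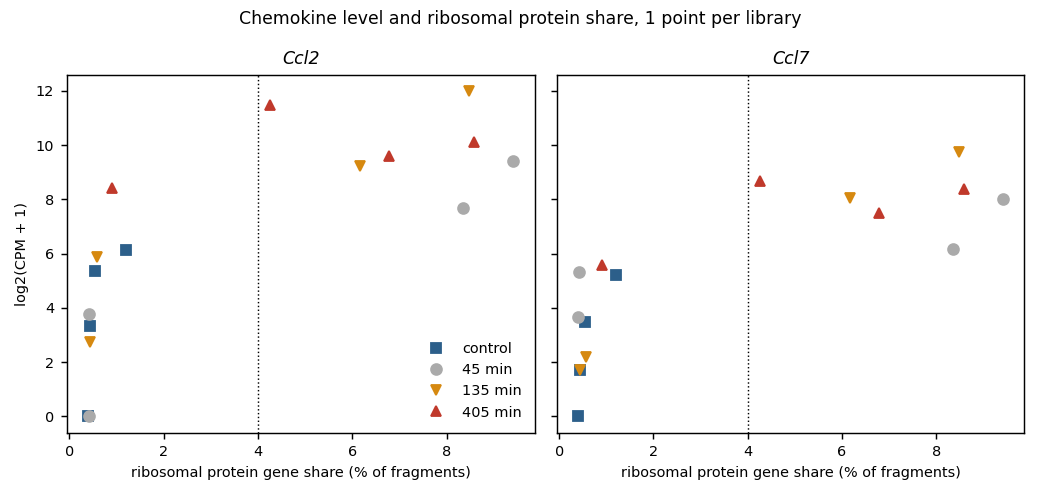
Ccl2 and Ccl7 as log2(CPM + 1) against the percentage of fragments on ribosomal protein genes, 1 point per library, with the 4% cut dotted. All 4 controls lie at the left, and in the right-hand cluster libraries of 45, 135 and 405 min stand between 204 and 4101 CPM for Ccl2.

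The other secreted targets were sparse. Cxcl1, a neutrophil chemokine, had 21.5, 17.4, 10.1 and 0 CPM in control and 0.544, 0, 4.76 and 0 CPM at 45 min. At 135 min it had 0, 8.41, 0 and 54.5 CPM, and at 405 min 38.2, 19.5, 2.89 and 16.8 CPM. Every group overlapped the controls, and the differences from control were -2.25, -0.78 and 0.90 at 45, 135 and 405 min (exact p = 0.143, 0.743 and 0.571). Without control replicate 4 the difference at 405 min became -0.11. Il6, a cytokine of the acute phase response, had 13.6, 2.32, 10.1 and 0 CPM in control, 0.653, 7.20, 5.44 and 0 CPM at 45 min, 0, 3.02, 0 and 9.08 CPM at 135 min, and 5.92, 15.6, 16.6 and 8.13 CPM at 405 min. All 4 values at 405 min were above 0 and 2 of them exceeded every control (difference 1.28, exact p = 0.286). Il6 had 396 fragments in the 16 libraries together, with 0 in 4 of them. At 45 and 135 min its differences were -0.65 and -0.93 (exact p = 0.600 and 0.486).

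The inhibitor and feedback genes overlapped the controls at every time. Nfkbia held 10.2, 25.5, 12.3 and 39.3 CPM in control, 16.6, 31.8, 27.9 and 19.2 CPM at 45 min, 39.6, 26.95, 92.9 and 5.68 CPM at 135 min, and 43.4, 15.6, 22.4 and 25.4 CPM at 405 min. In edgeR's test across 5030 genes its log2 fold changes from control were 0.40 ± 0.71, 1.01 ± 0.71 and 0.62 ± 0.71 (SE) at 45, 135 and 405 min, none past the threshold. Tnfaip3 held 62.1, 38.3, 71.8 and 146 CPM in control, 5.55, 5.89, 61.9 and 54.5 CPM at 45 min, 27.3, 17.9, 22.8 and 72.7 CPM at 135 min, and 32.7, 50.7, 46.2 and 14.8 CPM at 405 min. The 2 lowest Tnfaip3 values were those of the 45 min libraries over the cut, and the 45 min libraries under it stood inside the control range. Its log2 fold changes were -1.31 ± 0.72, -1.03 ± 0.71 and -0.94 ± 0.71 (SE), with edgeR adjusted p of 0.432, 0.599 and 0.490.

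Of the subunits, Nfkb1 and Rela were tested in the same fit, since 4 of the 10 members had a count in every library. Nfkb1 held 56.5, 26.7, 22.4 and 6.94 CPM in control, 57.6, 79.7, 14.97 and 43.3 CPM at 45 min, 72.6, 48.1, 1.75 and 38.6 CPM at 135 min, and 114, 33.8, 43.3 and 67.6 CPM at 405 min. Its log2 fold changes were 1.17 ± 0.85, 0.84 ± 0.85 and 1.54 ± 0.86 (SE), and the edgeR adjusted p of 0.357 at 405 min was the lowest of the 4 tested members. Rela, the subunit that carries the main activation domain, held 42.9, 33.7, 55.0 and 16.2 CPM in control, 21.2, 10.2, 59.9 and 40.0 CPM at 45 min, 1.27, 14.9, 78.9 and 59.0 CPM at 135 min, and 101, 39.0, 33.9 and 27.1 CPM at 405 min. The 3 lowest Rela values, 1.27, 10.2 and 14.9 CPM, were in libraries over the cut at 45 and 135 min. Its log2 fold changes were -0.06 ± 0.79, 0.02 ± 0.80 and 0.73 ± 0.79 (SE).

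The non-canonical subunits had a 0 in 1 library each. Nfkb2 held 59.9, 26.7, 33.7 and 2.31 CPM in control, 22.0, 5.08, 45.6 and 49.7 CPM at 45 min, 10.1, 14.9, 0 and 69.3 CPM at 135 min, and 135, 29.9, 32.5 and 29.2 CPM at 405 min. At 405 min replicate 1 stood apart and the other 3 libraries lay together, inside the control range. Relb held 24.8, 22.1, 32.5 and 77.5 CPM in control, 4.24, 3.60, 23.8 and 27.2 CPM at 45 min, 0.317, 11.2, 94.7 and 0 CPM at 135 min, and 46.2, 15.6, 44.8 and 12.2 CPM at 405 min. Exact p ran from 0.429 to 0.800 over the 3 times for Nfkb2 and from 0.143 to 0.543 for Relb, with overlap throughout.

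The edgeR test called 0 of the 4 members at each time, against a background of 0% of 5030 genes at each time. At an unadjusted p under 0.05 it counted 648, 462 and 804 genes (12.9%, 9.18% and 15.98%) at 45, 135 and 405 min and 0 members. DESeq2 called 330, 173 and 404 genes, but its independent filtering left the 4 members with no adjusted p, so that it did not test them. Without that filtering DESeq2 called 1, 2 and 217 genes and 0 members, whose lowest adjusted p was 0.270 (Nfkb1 at 405 min). Median log2 fold changes of the 4 tested members were 0.17, 0.43 and 0.67, beside 0.14, 0.16 and 0.11 for all genes tested.

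Directions depended on what the fragments were scaled to. With CPM the median of all genes differed from control by -0.98 at 405 min, and with fragments per 100000 ribosomal protein gene fragments by -3.34, so changes on that scale have to be read against a lower centre. The scale divides by the fragments that define the 4% cut. All 4 controls lay under the cut and 3 libraries at 405 min over it. Values below control on that scale cannot be told apart from this difference in library kind. On that scale Ccl2 at 405 min was 4.69 above control (exact p = 0.0286, all 4 libraries above all controls) and Ccl7 was 3.53 above (exact p = 0.0571, with overlap). The share of all genes that separate from the controls on that scale was not counted. Nfkbia turned from 0.38 to -2.31 and Relb went from -0.43 to -3.15, both with all 4 libraries below all controls (exact p = 0.0286 each). The median of all genes was -3.34 and that of genes with a count in every library -2.90, and Nfkbia lay above both. Tnfaip3 lay at -3.82 (exact p = 0.0571), below both medians. Relb lay between the 2 medians, so its fall was about that of a typical gene. Nfkb1, Nfkb2, Rela, Cxcl1 and Il6 also turned negative at 405 min. TMM library sizes kept the signs of all 10 at 405 min, with Ccl2 at 6.63 and Ccl7 at 5.40.

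**Figure D3:**
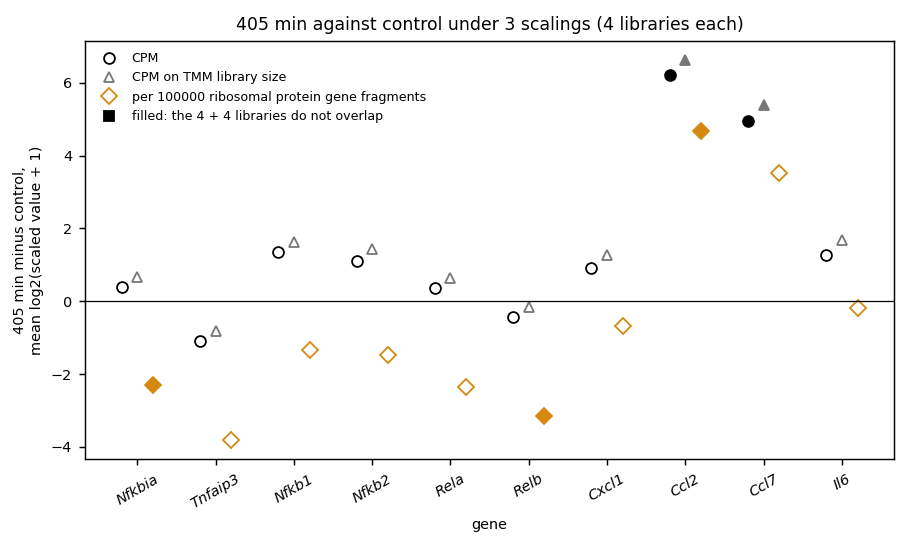
Difference of means between 405 min and control on the log2(scaled value + 1) scale for each gene, 4 libraries per group, under CPM (circles), CPM on TMM library sizes (triangles) and fragments per 100000 ribosomal protein gene fragments (diamonds). Filled symbols mark groups that do not overlap. With CPM 2.69% of all genes lay wholly above the controls and 7.44% wholly below. On the other scalings these shares were not counted. Ccl2 is filled under all 3 scalings, at 6.21, 6.63 and 4.69.

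The 7 libraries over the cut allow a course among treated cells with no control. In an edgeR fit to 8605 genes with a count in each of them, the 8 members tested all had positive log2 fold changes at 405 against 45 min. Relb held 3.07 ± 1.24 (SE), Tnfaip3 at 2.40 ± 0.82, Nfkb2 at 2.25 ± 0.91, Ccl2 at 1.81 ± 1.10 and Rela at 1.75 ± 0.97. Ccl7 was at 0.91 ± 0.84, Nfkbia at 0.31 ± 0.68 and Nfkb1 at 0.12 ± 0.61, the smallest of the 8. The members' median was 1.78 and that of all genes tested 0.14. Without a filter on low counts the median of all 22279 genes was 1.26, so that the centre depended on the filter. There Nfkb1 (-0.03), Nfkbia (0.15), Ccl7 (0.75) and Il6 (1.14) lay below that median. Rela (1.54), Ccl2 (1.58), Nfkb2 (2.03), Tnfaip3 (2.15), Relb (2.81) and Cxcl1 (5.87) lay above it. In the fit to 8605 genes no member passed, with a smallest edgeR adjusted p of 0.690, and 0% of all genes were called. At an unadjusted p under 0.05 there were 3 members (Relb, Tnfaip3 and Nfkb2) and 616 genes, 7.16% of all tested, and DESeq2 called 62 genes and 0 members. Single libraries moved several of these values. Leaving out 405 min replicate 1, which stood apart in Nfkb2, gave 1.26 for Nfkb2 (unadjusted p = 0.239 by edgeR) and 1.02 for Rela, and over all 5 such fits Nfkb2 ran from 1.26 to 3.60 and Rela from 1.02 to 2.33. Ccl2 ran from 1.15 to 2.98 and Ccl7 from 0.24 to 2.17, lowest without 45 min replicate 1 and highest without 45 min replicate 2. Relb ran from 2.83 to 3.41 and Tnfaip3 from 2.04 to 2.66.

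At 135 against 45 min the median of all genes was 1.12 without a filter and -0.07 in the fit to 8605 genes. In the fit to 8605 genes, 5 of the 8 members were positive. Ccl2 was at 2.41 ± 1.19 (SE), Tnfaip3 at 1.91 ± 0.85 and Ccl7 at 1.72 ± 0.92, while Rela was at -1.16 ± 1.02. These values rested on single libraries: without 135 min replicate 1 Ccl2 was at 0.15, Ccl7 at 0.38 and Rela at -0.32, without 135 min replicate 2 Rela was at -3.56, and without 45 min replicate 2 Ccl2 was at 3.57 and Ccl7 at 2.98. Tnfaip3 ran from 1.38 to 2.30. Here too 0% of genes were called by edgeR, with 1 member (Tnfaip3) and 141 genes, 1.64% of all tested, at an unadjusted p under 0.05. DESeq2 called 3 genes and 0 members.

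**Figure D4:**
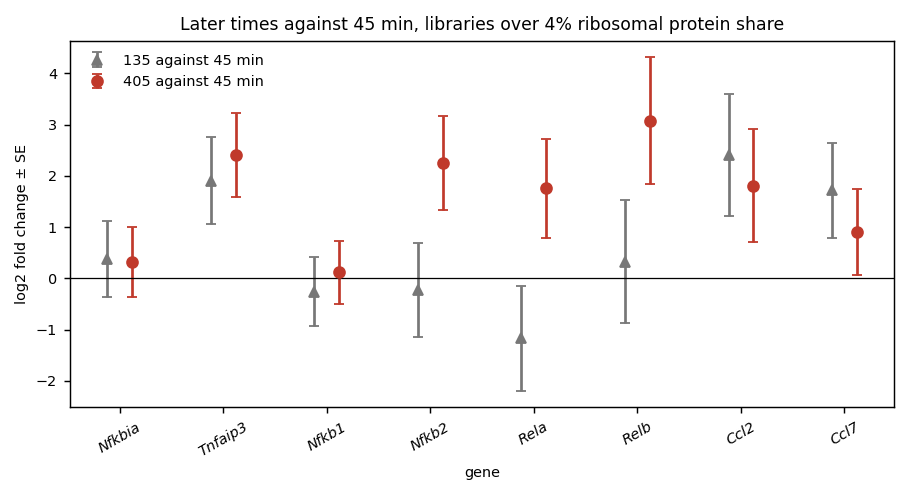
Log2 fold change with SE (bars) from edgeR for the 8 members with a count in each of the 7 libraries over the cut, at 135 min (grey triangles, 2 libraries) and 405 min (red circles, 3 libraries) against 45 min (2 libraries). Points at 405 min are above 0 for all 8, from 0.12 to 3.07.

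Counted by separation of libraries over the cut, 6 of the 10 members had all 3 values at 405 min above both at 45 min, against 8.94% of 22135 genes. They were Nfkb2, Rela, Relb, Tnfaip3, Cxcl1 and Ccl2. Some margins were narrow. Cxcl1 held 4 fragments in 405 min replicate 3 (2.89 CPM, where 3 fragments are worth 2.17 CPM), and 10 and 0 fragments at 45 min. The lowest 405 min and highest 45 min values were 27.1 and 21.2 CPM for Rela. They were 29.2 and 22.0 CPM for Nfkb2 and 783 and 676 CPM for Ccl2. At 135 min Tnfaip3 and Ccl7 did so, 2 of 10 against 18.7% of 22064 genes. Relb, for instance, went from 4.24 and 3.60 CPM at 45 min to 46.2, 44.8 and 12.2 CPM at 405 min, and Tnfaip3 from 5.55 and 5.89 to 32.7, 46.2 and 14.8 CPM. Among these libraries the receptor gene share was 0.00556% and 0.228% at 45 min and 0.338%, 2.62% and 0.00774% at 405 min. Replicates 1 and 3 at 405 min thus held more of the signal that marks the libraries under the cut than both 45 min libraries. Tnfaip3, Relb, Rela, Nfkb2 and Cxcl1 had higher median CPM under the cut than over it. These were 61.9 and 17.9 for Tnfaip3, 24.8 and 11.2 for Relb and 42.9 and 21.2 for Rela. They were 33.7 and 22.0 for Nfkb2 and 10.1 and 2.89 for Cxcl1, and Ccl2 went the other way (12.8 and 783). What part this has in the separation was not tested. Without replicate 3, with the cut at 6%, the edgeR log2 fold changes were 2.85 for Relb, 2.57 for Nfkb2, 2.04 for Tnfaip3 and 1.15 for Ccl2, and no member passed. That fit kept 405 min replicate 1.

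The deepest library at 45 min (replicate 1) and the deepest at 405 min (replicate 4) had the lowest receptor shares, 0.00556% and 0.00774%, and ribosomal protein shares of 8.34% and 8.59%. They were paired after their values were seen, and a single pair has no replicate check, so the intervals cover counting error only (95%, exact). Cxcl1 went from 10 to 335 fragments, a CPM ratio of 30.9 (16.6 to 65.0), and Il6 from 12 to 162 fragments, a ratio of 12.5 (6.94 to 24.6). The monocyte chemokines followed, with Ccl2 at 5.48 (5.29 to 5.68) and Ccl7 at 4.67 (4.40 to 4.96). Relb had a ratio of 2.89 (2.23 to 3.77) and Tnfaip3 one of 2.67 (2.12 to 3.37). Lower ratios were those of Nfkbia at 1.53 (1.32 to 1.76), Nfkb2 at 1.33 (1.17 to 1.51), Rela at 1.28 (1.12 to 1.46) and Nfkb1 at 1.18 (1.08 to 1.27). All 10 ratios were above 1, the median over 10807 genes with at least 10 fragments in both libraries was 0.806, and 6 members exceeded a ratio of 2 against 9.95% of 12199 genes. With all libraries over the cut, Il6 and Ccl7 overlapped between 45 and 405 min. Il6 held 7.20 CPM in 45 min replicate 2 and 5.92 CPM in 405 min replicate 1, and Ccl7 held 257 and 181 CPM there. Cxcl1, Ccl2, Relb and Tnfaip3 were higher in every 405 min library over the cut than in both at 45 min, though Cxcl1 had 4 fragments in 405 min replicate 3.

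**Figure D5:**
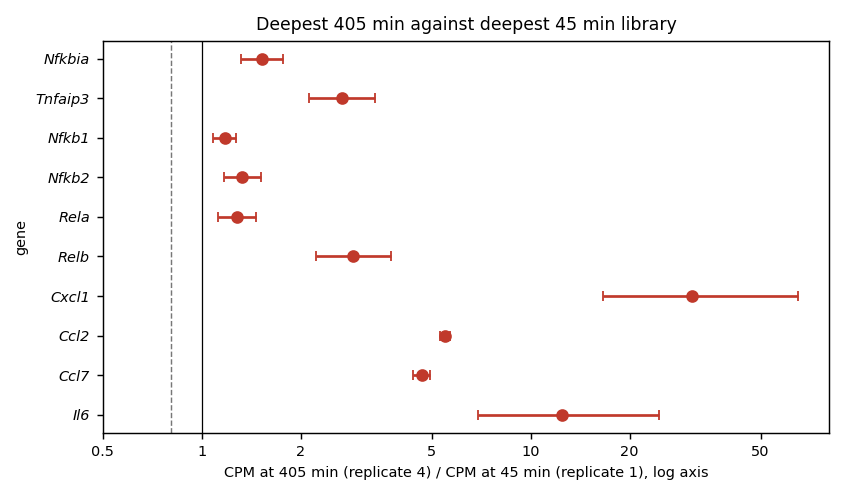
Ratio of CPM in the deepest 405 min library to CPM in the deepest 45 min library for each gene, on a log axis, with exact 95% counting intervals and no replicates. The solid line is a ratio of 1 and the dashed line the median over 10807 genes, 0.806. The 4 secreted targets have the 4 highest ratios in this pair, from 4.67 to 30.9. With all libraries over the cut, Il6 and Ccl7 overlapped between 45 and 405 min.

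Levels can be compared between genes only per length, from the deposited FPKM values. Over the cut Ccl2 had a median of 1513 FPKM (272 to 8106) and Ccl7 one of 582 FPKM (110 to 1728). Their ranges overlapped, and both lay above the range of every other member. Medians of the rest were 20.9 FPKM for Nfkb1, 20.6 for Nfkbia, 11.7 for Rela, 10.2 for Nfkb2, 8.09 for Il6, 5.11 for Relb, 4.26 for Tnfaip3 and 3.39 for Cxcl1, and neighbours in this order overlapped. Under the cut the 10 medians lay between 5.16 FPKM (Il6) and 18.2 FPKM (Ccl2), and all ranges overlapped.

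Other genes of the pathway were taken in 4 lists. Core proteins and kinases had 6 of 16 genes in the fit to all libraries, receptors and adaptors 9 of 18, ubiquitin editing and feedback genes 7 of 13 and other targets 9 of 30. By edgeR none passed at any time in either direction, with 2, 2, 3 and 2 genes of the lists at an unadjusted p under 0.05 at 405 min, where 15.98% of all 5030 genes were. At 405 min the medians of the lists were 0.43, -0.31, 0.04 and 1.05, beside 0.11 for all genes. The values farthest from 0 were those of Ptgs2, the inducible cyclooxygenase, at 4.27 ± 1.20 (SE), of Tax1bp1, an adaptor of A20, at 2.87 ± 1.08, of Map3k7, the kinase TAK1 upstream of the IkappaB kinases, at 2.70 ± 0.95, and of Csf1, a macrophage growth factor, at 2.61 ± 0.88, each with an edgeR adjusted p of 0.285. In the 405 min library under the cut, replicate 2, Map3k7 (78.0 CPM) and Csf1 (76.7 CPM) lay inside the range of the controls. Ptgs2 (123 CPM) and Tax1bp1 (109 CPM) lay above it there. Among receptors and adaptors, of which 6 of 9 had negative values, Irak1 was at 1.51 ± 0.81, Ripk1 at 1.41 ± 0.54 and Il1r1, the interleukin-1 receptor, at -1.26 ± 0.54. Irak1 held 112, 146, 102 and 124 CPM in control and 64.7, 139, 827 and 121 CPM at 405 min. Only replicate 3 exceeded the controls.

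Over the cut at 405 against 45 min the same lists had 10, 12, 12 and 14 genes in the fit and again none passed, with 0, 0, 1 and 2 at an unadjusted p under 0.05, where 7.16% of all 8605 genes were. Il1r1 was at -0.74 ± 0.60 (SE) and Tbk1, a kinase related to the IkappaB kinases, at -1.10 ± 0.63. Their medians were 0.16, 0.46, 0.91 and 0.58, beside 0.14 for all genes. Cxcl10, an interferon-inducible chemokine, was at 3.91 ± 1.39 (SE) and Ptgs2 at 3.38 ± 1.0, both with an edgeR adjusted p of 0.690. Nfkbie, an inhibitor of the IkappaB family, was at 2.19 ± 1.25 and Lif, a cytokine of the IL-6 family, at 2.40 ± 1.09. Both overlapped between the times. Nfkbie held 6.39 CPM in 45 min replicate 2 and 2.61 CPM in 405 min replicate 4, and Lif 6.71 and 6.22 CPM there. The highest value of each, 35.4 and 58.5 CPM, was in 405 min replicate 3.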

How the data were processed

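The 16 tables hold, per library, estimated counts (raw fragments per gene) and FPKM values that the authors deposited. The study's methods name mouse assembly mm9, DNAnexus and RefSeq, and the submitters' processing notes name mm10. The tables carry no coordinates, and the aligner is not given in the sources used here. Counts were rounded (at least 98.4% of a library's values were whole). In the table of 45 min replicate 1, dates stood in place of 27 symbols and were restored from the row order shared with the other tables. No 2 of the 120 library pairs were identical. Depth was 570323 to 19930375 fragments, and 3 fragments, the limit that a count of 0 allows, were worth 0.151 to 5.26 CPM. Intervals and limits cover counting error only.

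CPM was computed over all genes. For single values, mean log2(CPM + 1) was tested with 2-sided exact permutation. Whole-table fits used the quasi-likelihood test of edgeR (version 4.0.16, under R 4.3.3), TMM, genes with at least 1 count in every library of the fit, and Benjamini-Hochberg adjustment at 0.05, and the pipeline was tested on simulated data. DESeq2 1.42.0, other filters, scalings, a replicate block and leaving out each library were alternatives. All members are named, and for 4 pathway lists up to 3 genes with the largest fold change. Members and lists were chosen with earlier results of these data known. The 4% cut came with the choice of genes.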

Additional observations from a re-analysis of the deposited data

Results flagged for a closer look

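Nfkb2 at 405 min stood out because 1 of its 4 libraries lay far from the others. Replicate 1 had a log2(CPM + 1) of 7.09, while the other 3 lay between 4.92 and 5.07. In all, 52 sets of 4 libraries were examined in this way and 1 exceeded Dixon's limit, where chance alone gives 2.6. No cause was tested.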

How the results depend on the processing

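No member with an adjusted p was called in any setting run. DESeq2 with independent filtering gave the 4 members none against control. Counts of all genes called, 0 in the reported fits, became with DESeq2 330, 173 and 404 at 45, 135 and 405 min against control, and without independent filtering 1, 2 and 217. At 405 min they became 12 by edgeR's exact test, 1 each with filterByExpr, without a filter, and without a filter plus replicate block, and 2 in the libraries under the cut. Over the cut they became 62 by either DESeq2 setting and 16 without a filter at 405 against 45 min, and 3, 3 and 3 at 135 min. The replicate block alone gave 0 genes at each time. Same-numbered deviations correlated at a mean of 0.0700 over 24 pairs (14 over 0.1), different-numbered ones at -0.0234 over 72 pairs (24 over 0.1). Libraries with the same number were often of different kinds, so this check cannot tell whether replicate numbers pair libraries. Signs turned as follows, and the cause was not tested. Per 100000 ribosomal fragments, the measure behind the 4% cut, Nfkbia became -1.40, -1.16 and -2.31 at 45, 135 and 405 min. On the same scale Nfkb1 became -0.80, -1.69 and -1.33. Nfkb2 became -1.40 at 45 min and -1.49 at 405 min, Ccl2 -0.17 at 45 min, and Rela -2.34, Cxcl1 -0.68 and Il6 -0.18 at 405 min. Without a filter Rela at 45 min became 0.12 (0.10 with the block), Cxcl1 at 135 min 0.39 (0.41) and Relb at 405 min 0.84 (0.79), and with the block Rela at 135 min 0.12. Within edgeR, Rela at 45 min became 0.12 with filterByExpr, 0.12 without a filter, 0.10 with the block added, 0.0745 with only the groups compared and 0.45 under the cut, and at 135 min -0.00495, -0.0116 and, with the block, -0.14. Under the cut Nfkb1 at 135 min became -0.47 and Nfkbia at 405 min -0.47. Over the cut Nfkb1 at 405 min became -0.029 without a filter. With 1 library left out, differences in mean log2(CPM + 1) spanned 0 for Nfkbia (-0.00886 to 0.61), Nfkb2 (-0.70 to 0.85) and Rela (-0.68 to 0.13) at 45 min, Nfkbia (-0.0242 to 1.25), Nfkb1 (-0.42 to 1.17), Nfkb2 (-1.90 to 0.14) and Rela (-1.43 to 0.29) at 135 min, and Rela (-0.0331 to 0.59) and Cxcl1 (-0.11 to 1.56) at 405 min. In edgeR they did so for Rela at 45 min (-0.44 to 0.18) and 135 min (-0.52 to 0.46). Over the cut, where a group left with 1 library is assumed to vary like the others, they did so at 405 min for Nfkbia (-0.11 to 0.94) and Nfkb1 (-0.22 to 0.46), and at 135 min for Nfkbia (-0.13 to 0.99), Nfkb1 (-0.79 to 0.12), Nfkb2 (-0.86 to 1.10) and Relb (-3.53 to 1.25). Without a filter, the block moved Ccl2 at 405 min from 6.31 to 9.51 and Ccl7 from 5.35 to 8.02. In the controls, 3 fragments were worth over 3 CPM, near the level of Il6 and Cxcl1 in several libraries.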
